A study of Mus musculus with 9 samples.

Results

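Myeloid C-type lectin receptors are membrane proteins of macrophages, microglia, monocytes, neutrophils and dendritic cells that bind sugars, lipids or products of dead cells. The set described here holds 7 genes chosen by symbol, Clec4a2, Clec4d, Clec4e, Clec4n, Clec5a, Clec7a and Clec12a, out of 55385 gene rows of the deposited table. They were chosen with earlier results of these data known. All 7 were found, and 3 of them (Clec4d, Clec4n and Clec5a) passed the filter on low values that was used for the main test. The members were measured in ribosomal RNA-depleted total RNA of the brain hemisphere in 9 libraries; all mice were C57BL/6 males of 8 to 10 weeks.

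The libraries fall into 3 groups of 3. Sham mice had the neck surgery under sevoflurane without closure of the artery. In tMCAO mice, which model ischemic stroke by transient closure of the middle cerebral artery, a filament blocked the artery for 90 min and was then pulled back so that blood returned. The celastrol group had the same occlusion and an intraperitoneal dose of 4.5 mg/kg celastrol, a triterpenoid from plants, when blood flow was restored. The labels used here do not state a vehicle treatment, the time from reperfusion to sampling or the number of animals per library. The p-values therefore describe only the spread between libraries, which may be technical.

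Of these receptors, 5 are known as activating and 2 as inhibitory. The activating ones pass their signal through a tyrosine motif that recruits the kinase Syk, which then acts through the adaptor Card9 on NF-kappaB. Clec7a (dectin-1, a receptor for fungal beta-glucan) carries such a motif in its own tail. Clec4e (Mincle, which binds mycobacterial glycolipid and the nuclear protein Sap130 from dying cells), Clec4d (its partner at the cell surface) and Clec4n (dectin-2, a receptor for mannans) use the adaptor encoded by Fcer1g. Clec5a (MDL-1) uses the adaptor encoded by Tyrobp. Clec4a2 (DCIR) and Clec12a (MICL, which binds uric acid crystals) carry inhibitory motifs that recruit phosphatases such as the one encoded by Ptpn6. In bulk tissue a lower number of cells of a type and less RNA in each cell cannot be told apart.

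All 7 genes lie on mouse chromosome 6, in coordinates of the deposited table, which is on mm10. Clec5a spans chr6:40574894-40585821 on the minus strand and stands alone. Clec4a2 (chr6:123106428-123143999), Clec4n (chr6:123229843-123247021) and Clec4d (chr6:123262111-123275265), on the plus strand, and Clec4e (chr6:123281789-123289870), on the minus strand, form a run in which Clec4n, Clec4d and Clec4e are separated by gaps of 15090 and 6524 bases. Clec12a (chr6:129342691-129364416, plus strand) and Clec7a (chr6:129461591-129472779, minus strand) lie 97175 bases apart.

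The 250 bases before the RefSeq start site were available for 6 members and are shown for 5 of them. Clec4e, Clec5a and Clec7a are members whose 3 tMCAO libraries all lay above sham, and Clec4a2 and Clec12a are the inhibitory members, whose groups overlapped; Clec4d, whose tMCAO and sham libraries overlapped too, is not shown. Capitals mark GAGGAA, or TTCCTC on the other strand, the core of a common binding motif of the myeloid factor PU.1. Positions are from RefSeq on GRCm38.p6, at chr6:123289872-123290121 (minus strand), chr6:40585806-40586055 (minus strand), chr6:129472780-129473029 (minus strand), chr6:123122440-123122689 (plus strand) and chr6:129349994-129350243 (plus strand), and each is written 5′ to 3′ along its own strand. The RefSeq starts of Clec4a2 and Clec12a lie well inside the span that the table gives for the gene, and the start of Clec5a lies just inside its end.
Clec4e: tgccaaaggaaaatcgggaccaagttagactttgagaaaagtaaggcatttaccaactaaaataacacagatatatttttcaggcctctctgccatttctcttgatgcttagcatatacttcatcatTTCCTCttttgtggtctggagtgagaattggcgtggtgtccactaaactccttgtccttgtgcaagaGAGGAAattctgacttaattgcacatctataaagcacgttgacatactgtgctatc
Clec5a: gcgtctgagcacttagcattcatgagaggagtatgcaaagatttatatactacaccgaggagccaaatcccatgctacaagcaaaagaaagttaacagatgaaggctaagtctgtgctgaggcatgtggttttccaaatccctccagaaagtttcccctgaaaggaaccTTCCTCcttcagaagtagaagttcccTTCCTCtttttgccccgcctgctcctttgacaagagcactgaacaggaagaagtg
Clec7a: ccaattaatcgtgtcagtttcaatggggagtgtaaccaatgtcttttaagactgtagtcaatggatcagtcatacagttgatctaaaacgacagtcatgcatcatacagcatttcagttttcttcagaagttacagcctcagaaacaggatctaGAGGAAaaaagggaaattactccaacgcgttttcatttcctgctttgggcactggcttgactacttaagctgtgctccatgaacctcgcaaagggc
Clec4a2: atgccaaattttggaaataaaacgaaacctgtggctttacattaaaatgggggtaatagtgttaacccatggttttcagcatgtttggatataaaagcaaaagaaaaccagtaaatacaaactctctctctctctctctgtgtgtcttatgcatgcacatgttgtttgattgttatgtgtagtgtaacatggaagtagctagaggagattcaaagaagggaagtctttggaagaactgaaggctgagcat
Clec12a: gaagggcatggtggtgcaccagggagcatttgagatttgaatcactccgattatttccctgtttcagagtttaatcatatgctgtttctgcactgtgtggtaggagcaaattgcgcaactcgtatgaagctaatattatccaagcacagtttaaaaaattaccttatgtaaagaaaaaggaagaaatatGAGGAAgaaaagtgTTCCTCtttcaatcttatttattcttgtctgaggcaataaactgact

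GAGGAA on either strand was present before 5 of the 6 starts, Clec4a2 being the exception, and before 23.3% of 32851 promoters of the same length. TTNNGNAA, a C/EBP-type motif, was present on either strand before 5 of 6, Clec7a being the exception, and before 36.8% of all. TGANTCA, an AP-1-type motif, was found before Clec12a and before 6.75% of all. No match of a motif overlapped one of another motif in these members. These are matches of letters, not measured binding.

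Clec5a had the highest mean of the members in every group by FPKM (the authors' value scaled to gene length and library size), and its level was higher in each of the 6 occluded libraries than in any sham library. It had 90, 73 and 88 estimated counts in sham replicates 1, 2 and 3, 356, 200 and 273 after tMCAO, and 315, 162 and 194 with celastrol. The sham libraries lay close together and the occluded groups overlapped each other. As CPM (counts scaled to the library total with TMM factors), the means were 1.33 ± 0.16, 3.92 ± 1.06 and 3.15 ± 1.01 (SD, n = 3 each). The log2 fold change was 1.56 ± 0.32 (SE) for tMCAO against sham, with an edgeR adjusted p of 0.125 over all genes, and 1.24 ± 0.32 for celastrol against sham, with an edgeR adjusted p of 0.293. Neither passed the threshold of 0.05 by edgeR's quasi-likelihood test, the main test.

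Clec7a was low in the 3 sham libraries and spread widely after occlusion. It had 12, 13 and 8 counts in sham, 188, 41 and 160 after tMCAO, and 58, 15 and 37 with celastrol. Every occluded library lay above every sham library in CPM, by a narrow margin for celastrol replicate 2 (0.239 CPM, against 0.219 CPM in sham replicate 2). Replicates 1 and 3 of tMCAO, at 2.53 and 2.47 CPM, were the highest of all 9, and celastrol replicate 1 (0.794 CPM) lay above tMCAO replicate 2 (0.563 CPM), so these groups overlapped. Clec7a did not pass the filter on low values, having 2 libraries at an FPKM of at least 0.5 where 3 were needed. In the fit without a filter its log2 fold change was 3.39 ± 0.69 (SE) for tMCAO against sham, with an edgeR adjusted p of 0.161. For celastrol against tMCAO it was −1.87 ± 0.64, with an edgeR unadjusted p of 0.0154 and an adjusted p of 0.834. That unadjusted p moved above 0.05 when 1 library was left out: to 0.0566 for tMCAO replicate 1, 0.0546 for tMCAO replicate 3 and 0.0502 for celastrol replicate 2.

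The 3 clustered activating genes had low counts in sham. Clec4e was listed at 0 in the 3 sham libraries and had 28, 15 and 59 counts after tMCAO, and 49, 0 and 17 with celastrol. A count of 0 in a library allows up to 3 counts, and against a sham total taken as 3 counts Clec4e was at least 30.4-fold higher after tMCAO and at least 19.6-fold higher with celastrol. Celastrol replicate 2 was the occluded library in which Clec4e was at 0. By edgeR without a filter the adjusted p was 0.304 and 0.568.

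Clec4d varied widely between the occluded libraries. It had 15, 0 and 0 counts in sham, 262, 14 and 74 after tMCAO, and 164, 37 and 52 with celastrol. Its highest values were in replicate 1 of both occluded groups, while tMCAO replicate 2 (0.192 CPM) fell within the sham range (0 to 0.210 CPM). The log2 fold change against sham was 4.43 ± 1.45 (SE) after tMCAO and 3.96 ± 1.43 with celastrol, with edgeR adjusted p of 0.232 and 0.476. Without sham replicate 1, the sham library that held all its counts, the values were 9.79 and 9.32, fitted against a group at 0. They were 3.15 for tMCAO without tMCAO replicate 1 and 3.06 for celastrol without celastrol replicate 1.

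Clec4n had 19, 0 and 14 counts in sham, 59, 31 and 127 after tMCAO, and 47, 57 and 52 with celastrol. Every occluded library was above every sham library, and the celastrol libraries were close to each other (0.745 ± 0.142 CPM, SD, n = 3) where the tMCAO libraries were not (1.06 ± 0.80 CPM). Its log2 fold change was 2.63 ± 0.94 (SE) for tMCAO against sham, with an edgeR adjusted p of 0.266, and 2.11 ± 0.93 for celastrol against sham, with an edgeR adjusted p of 0.587.

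**Figure D1:**
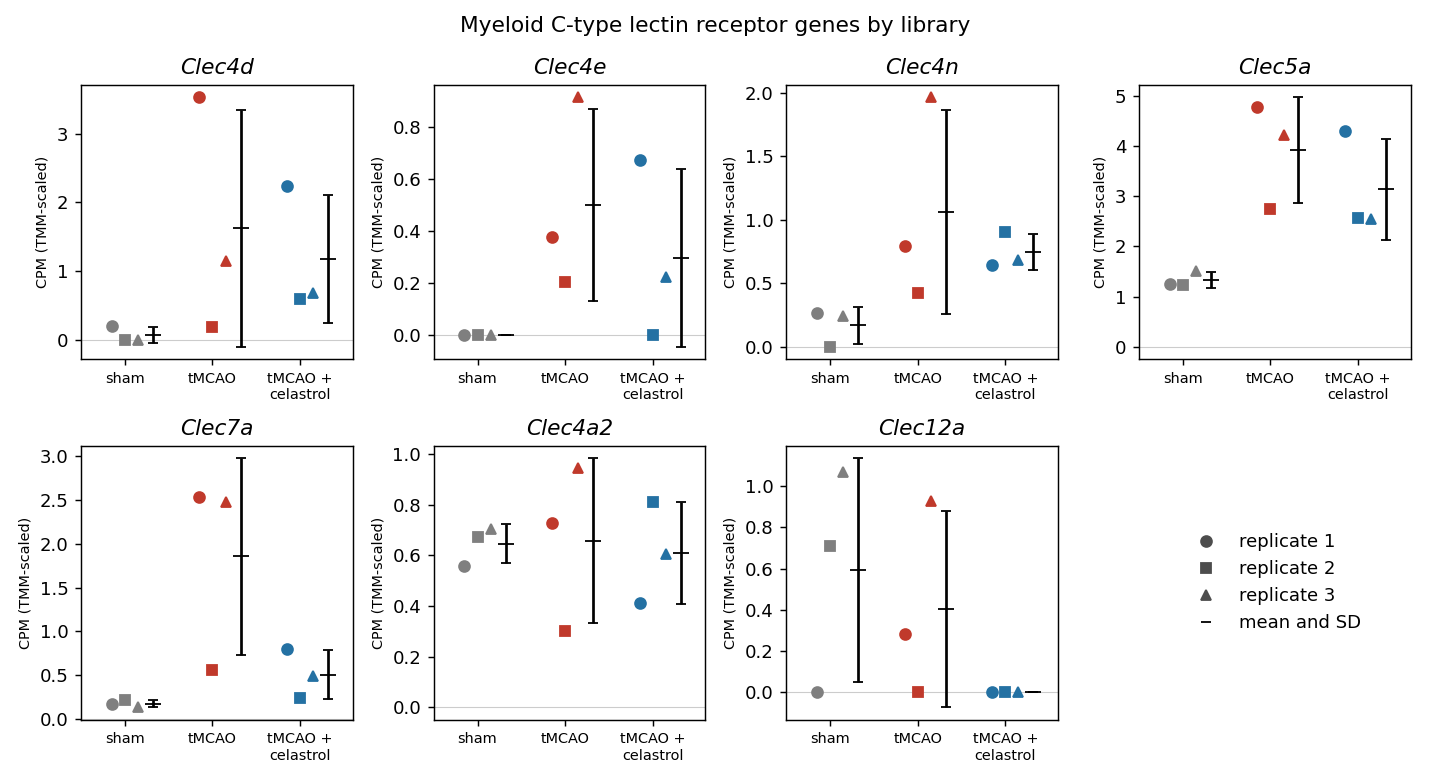
Level of each receptor gene (y axis, CPM with TMM scaling) in the 9 libraries, by group; symbols give the replicate number and the black bars the mean and SD of 3 libraries. Clec5a, Clec7a and Clec4n lie higher in every occluded library than in sham, Clec4a2 is at a like level in all groups, and Clec12a is at 0 in the 3 celastrol libraries.

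The inhibitory members did not share this pattern. Clec4a2 had 40, 40 and 41 counts in sham, 54, 22 and 61 after tMCAO, and 30, 51 and 46 with celastrol. The sham values lay within the range of both occluded groups. In the fit without a filter its log2 fold change was 0.02 for tMCAO against sham, with an approximate 95% interval from −1.12 to 1.17, so a change of about 2-fold in either direction lay within the error. Its edgeR p was 0.963 before adjustment. Clec4a2 has close paralogs beside it, whose reads the counting may have split. Clec4a1 went from 0.281 ± 0.083 CPM in sham to 0.777 ± 0.378 after tMCAO, and Clec4a3 from 0.812 ± 0.205 to 0.973 ± 0.827 CPM (SD, n = 3 each). Clec4a4, Clec4b1 and Clec4b2 had no counts in any library. A pseudogene, Gm44132, lies inside Clec4a2.

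Clec12a was seen in some libraries of sham and tMCAO and in none with celastrol. It had 0, 42 and 62 counts in sham, 21, 0 and 60 after tMCAO, and 0 in the 3 celastrol libraries. Against a celastrol total taken as 3 counts, sham was at least 38.9-fold higher and tMCAO at least 27.0-fold higher. Sham replicate 1 and tMCAO replicate 2 were at 0 too, so the groups overlapped. By edgeR without a filter the unadjusted p was 0.0184 for celastrol against sham and 0.0244 for celastrol against tMCAO, and the adjusted p was 0.673 and 0.834.

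No member passed the main test in any comparison. Because the members were chosen with earlier results of these data known, the shares of all genes given here and below describe the set and do not test it. After tMCAO, 4 of 7 (Clec4e, Clec4n, Clec5a and Clec7a) had all 3 libraries above sham, as had 8.32% of 33952 genes with any count and 12.4% of the 16982 that passed the filter. In the fit without a filter 5 of 7 (those and Clec4d) had an unadjusted edgeR p under 0.05 in the higher direction, as had 5.69% of genes. With Benjamini-Hochberg adjustment over all genes edgeR called 0 of 3 members with the filter and 0 of 7 without it, where it called 0% of genes in either fit. DESeq2, run as an alternative, called 4 of 7 without a filter, against 2.69% of genes called higher: Clec7a (DESeq2 adjusted p = 0.000194), Clec5a (0.000812), Clec4e (0.00513) and Clec4d (0.0174). With the filter DESeq2 called Clec4d and Clec5a, and 3.28% of genes higher. The 3 members in that fit reached the FPKM minimum in occluded libraries alone, so their count with the filter is not read against that share, here or below. The median log2 fold change of the 7 was 2.63, and that of all genes 0.01. It was unchanged with Clec4e set against a sham total of 3 counts.

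With celastrol against sham, 4 of 7 (Clec4d, Clec4n, Clec5a and Clec7a) had all 3 libraries above sham, as had 5.85% of genes with any count and 7.89% of filtered genes. In the fit without a filter 4 of 7 had an unadjusted edgeR p under 0.05 in the higher direction (Clec4d, Clec4e, Clec5a and Clec7a), as had 4.19% of genes, and 1, Clec12a, in the lower direction, as had 1.84%. EdgeR called 0 of 3 members with the filter, against 0.00589% of genes, and 0 of 7 without it, against 0.00884%. DESeq2 called Clec4e and Clec5a of 7 without a filter, against 1.57% of genes called higher. With the filter it called Clec5a, and 1.93% of genes higher. The median of the 7 was 1.53, and that of all genes 0.

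With the occluded groups pooled against sham, which shares the sham libraries with the comparisons above, Clec4n, Clec5a and Clec7a had all 6 libraries above the 3 sham libraries. That is 3 of 7, as against 2.76% of genes with any count and 4.2% of filtered genes. In the fit without a filter 5 of 7 had an unadjusted edgeR p under 0.05 in the higher direction, as had 5.28% of genes, and 1, Clec12a, in the lower direction, as had 3.67%. EdgeR called 0 of 3 members with the filter and 0 of 7 without it, and 0.0118% of genes in either fit. DESeq2 called 4 of 7 without a filter, against 2.93% of genes called higher. With the filter it called Clec4d and Clec5a, and 3.51% of genes higher. The log2 fold change was 1.40 ± 0.29 (SE) for Clec5a, with an edgeR adjusted p of 0.124, and 2.46 ± 0.63 for Clec7a, with an edgeR adjusted p of 0.249 without a filter.

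Celastrol against tMCAO asks whether the drug changed these genes after occlusion, and 0 of 7 members had groups that did not overlap, as against 3.38% of genes with any count lower in all 3 libraries and 4.13% of filtered genes. All 7 log2 fold changes were negative, with a median of −0.51 (0 for all genes with any count). They were read in the same libraries, so the shared direction is not 7 separate results. In the fit without a filter 2 of 7, Clec7a and Clec12a, had an unadjusted edgeR p under 0.05 in the lower direction, as had 1.53% of genes. EdgeR called 0 of 3 with the filter and 0 of 7 without it, and 0% of genes in either fit. DESeq2 called 0 of 7 and 0 of 3, against 0.0148% of genes called lower without a filter and 0.0421% with it. For Clec5a the log2 fold change was −0.32 with an approximate 95% interval from −1.04 to 0.39, for Clec4n −0.51 (−2.46 to 1.43) and for Clec4d −0.47 (−3.16 to 2.21). Leaving out tMCAO replicate 3 turned Clec4n to 0.27, Clec4e to 0.04 and Clec4a2 to 0.24, and leaving out tMCAO replicate 1 turned Clec4d to 0.82.

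**Figure D2:**
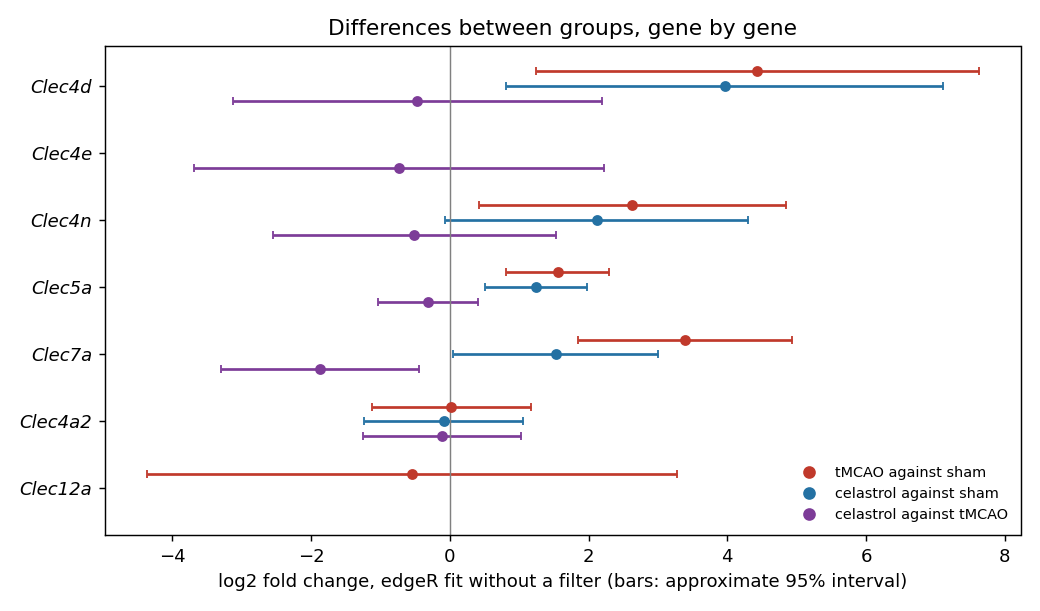
Log2 fold change of each gene (x axis) in 3 comparisons, from the edgeR fit without a filter; points are estimates and bars approximate 95% intervals. Comparisons against a group at 0 (Clec4e against sham, Clec12a with celastrol) are not drawn. The intervals of Clec4d, Clec5a and Clec7a against sham lie above 0, as does that of Clec4n for tMCAO but not for celastrol. That of Clec7a for celastrol against tMCAO lies below 0, and those of Clec4a2 span 0. Intervals are not adjusted over genes, and no member passed the edgeR test after adjustment.

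Levels can be set side by side between genes only per length. In sham, mean FPKM ran in the order Clec5a (0.295 ± 0.034), Clec4a2 (0.186 ± 0.019), Clec4n (0.102 ± 0.088), Clec12a (0.0892 ± 0.0821), Clec7a (0.0527 ± 0.0129) and Clec4d (0.0374 ± 0.0646; SD, n = 3 each), with Clec4e listed at 0. Clec5a and Clec4a2 did not overlap with each other or with any gene below them, while Clec4n, Clec12a, Clec7a and Clec4d overlapped. After tMCAO, Clec5a (0.936 ± 0.258), Clec4d (0.927 ± 0.985), Clec4n (0.684 ± 0.534) and Clec7a (0.644 ± 0.393) had overlapping ranges. The means of Clec4a2 (0.203 ± 0.106), Clec4e (0.0911 ± 0.0700) and Clec12a (0.0672 ± 0.0794) came below, and of the 4 genes above it only Clec5a did not overlap with Clec4a2. With celastrol the order was Clec5a (0.731 ± 0.276), Clec4d (0.661 ± 0.564), Clec4n (0.453 ± 0.058), Clec4a2 (0.180 ± 0.049), Clec7a (0.169 ± 0.101) and Clec4e (0.0548 ± 0.0636), with Clec12a at 0. The gene length behind these values, computed from count and FPKM, was 5631 to 5861 bases for Clec4e and 1810 to 1939 bases for Clec4d, and the order depends on it.

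The summed FPKM of the 5 activating genes was 0.608, 0.334 and 0.517 in sham, 4.60, 1.24 and 4.01 after tMCAO, and 3.18, 1.44 and 1.59 with celastrol. Every occluded library was above every sham library, with tMCAO replicate 2 the lowest of the 6. The summed FPKM of Clec4a2 and Clec12a was 0.165, 0.298 and 0.363 in sham, 0.271, 0.0874 and 0.452 after tMCAO, and 0.130, 0.229 and 0.181 with celastrol, with groups that overlapped. The activating genes thus held 52.8% to 78.7% of the summed FPKM in sham, 89.9% to 94.4% after tMCAO and 86.3% to 96.1% with celastrol.

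**Figure D3:**
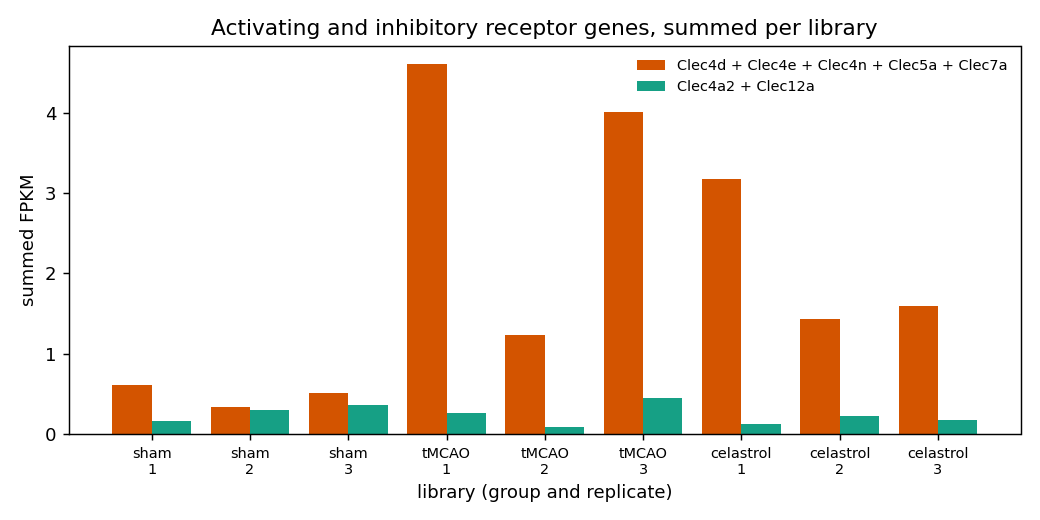
Summed FPKM (y axis) of the 5 activating and of the 2 inhibitory receptor genes in each of the 9 libraries (x axis, group and replicate). The activating sum is 0.334 to 0.608 in sham and 1.24 to 4.60 in the occluded libraries, and the inhibitory sums overlap between groups.

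The adaptors and signalling genes of these receptors formed a list of 21 genes, of which 18 were tested, and edgeR called 0 in each of the 4 comparisons. For tMCAO against sham 9 of them had an unadjusted p under 0.05 in the higher direction and 0 in the lower, with a median log2 fold change of 0.89 (0.01 for all genes). For celastrol against sham it was 7 and 0, with a median of 0.71, and for all occluded libraries against sham 9 and 0, with a median of 0.77. In the fit without a filter 5.69%, 4.19% and 5.28% of all genes had such a p in the higher direction for these 3 comparisons. The counts of this list and the other lists come from the fit with the filter, for which that share is not given. They describe the lists and do not test them. The smallest p belonged to Ptpn6 (log2 fold change 1.498 ± 0.230, SE, edgeR adjusted p = 0.0907), the phosphatase bound by inhibitory receptors. It did not pass. The receptors' own adaptors and kinase were chosen for their role after the values were seen: Fcer1g went from 5.50 ± 0.93 to 11.9 ± 4.40 CPM and Tyrobp from 7.87 ± 0.61 to 15.2 ± 7.97 CPM (SD, n = 3 each). Card9 went from 1.65 ± 0.20 to 4.01 ± 0.55 CPM and Syk from 5.17 ± 0.10 to 7.52 ± 3.66 CPM. None passed for tMCAO against sham, with edgeR adjusted p of 0.204 (Fcer1g), 0.255 (Tyrobp), 0.125 (Card9) and 0.499 (Syk). The Syk libraries overlapped, at 295 to 369 counts in sham and 253 to 686 after tMCAO. Hcst, also on the list but too low for the filter, was at 0.178 ± 0.169 CPM in sham and 0.161 ± 0.177 after tMCAO. With celastrol against tMCAO, the list had 0 genes at an unadjusted p under 0.05 in either direction and a median of −0.21. Its smallest p belonged to Ptpn6 (−0.35 ± 0.22, SE) and Relb (−0.70 ± 0.48), an NF-kappaB subunit, both with an edgeR adjusted p of 0.976.

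Of 30 other C-type lectin genes, 10 were tested and edgeR called 0 in each comparison. For tMCAO against sham 1 had an unadjusted p under 0.05 in the higher direction, Clec4a1 (1.47 ± 0.51, SE, edgeR adjusted p = 0.252), and 1 in the lower, Clec11a, a secreted growth factor (−0.71 ± 0.29, edgeR adjusted p = 0.314). Their median was 0.22, and 0.06 for celastrol against tMCAO, where the smallest p belonged to Clec2d (−0.56 ± 0.33) and Clec14a (−0.58 ± 0.38), with edgeR adjusted p of 0.976. Of 16 ligands and downstream products, 7 were tested and edgeR called 0, with a median of 1.005 for tMCAO against sham. Ccl4 (edgeR adjusted p = 0.0907) and Ccl3 (0.0994), chemokines of activated myeloid cells, had the smallest p and did not pass. With celastrol against tMCAO the smallest p belonged to Ptgs2, cyclooxygenase 2 (1.17 ± 0.45, SE, edgeR unadjusted p = 0.0288, adjusted p = 0.976), and Ccl3 (−1.66 ± 0.87, adjusted p = 0.976), with a median of −0.08. Sap130, the ligand of Clec4e, was at a log2 fold change of 0.15 with an edgeR adjusted p of 0.540 for tMCAO against sham; it was named after its value was seen.

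The protein-coding genes next to the members were read in the same table. Olfr460, 551 bases from Clec5a, summed to 9, 40 and 25 counts in sham, tMCAO and celastrol, and its log2 fold change for tMCAO against sham was 2.12 ± 1.33 (SE, edgeR without a filter, adjusted p = 0.587). Vmn2r19, beside Clec4e, had 0 counts in every library, as had Clec2m beside Clec12a. Clec1a, beside Clec7a, summed to 199, 202 and 192 counts in sham, tMCAO and celastrol, with no difference beyond its error (log2 fold change −0.07 ± 0.55, SE, for tMCAO against sham, edgeR without a filter). Olr1, on the other side of Clec7a, had 4, 30 and 16.

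Over the 9 libraries, the tested protein-coding genes whose log2 CPM ran most like a member's are given by Pearson r as a description, since the libraries share the 3 groups and library totals. For Clec5a they were Rnf31 (r = 0.982), Qpctl (0.978) and Srgn (0.978). For Clec4d they were Mc4r (0.986) and Zbtb7c (0.985), and for Clec4n Ang (0.940), Rpl7l1 (0.934) and Mmp9 (0.927).

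Genes used as markers of cell types, among them the cells that carry these receptors, were read in the same libraries. Whether a listed gene is made by that cell type alone in this tissue was not tested, so a sum is not a measure of cell number. The summed level of 6 neuron genes was 5320 to 8533 CPM over the 9 libraries, that of 6 astrocyte genes 3249 to 4831 and that of 6 oligodendrocyte genes 2360 to 4534, with no gene of these at 0 in a group. For 6 endothelial genes it was 197 to 199 CPM in sham, 230 to 313 after tMCAO and 229 to 383 with celastrol. Summed over 9 pan-myeloid genes the level was 193 to 240 CPM in sham, 171 to 361 after tMCAO and 213 to 260 with celastrol. The groups overlapped, with tMCAO replicate 3 the highest. Summed over 11 resident microglia genes it was 213 to 283, 180 to 382 and 225 to 272 CPM. For 14 neutrophil genes it was 7.67 to 8.51 CPM in sham, 22.5 to 26.4 after tMCAO and 24.0 to 46.8 with celastrol, which did not overlap with sham. Of the 7 neutrophil genes tested, 5 had an unadjusted edgeR p under 0.05 in the higher direction for tMCAO against sham, and 0 in the lower. None of the 7 passed after adjustment. In the fit without a filter 5.69% of all genes had such a p in the higher direction. Retnlg, Mmp8, Il1r2 and Ngp, with sham mean FPKM of at most 0.124, reached the FPKM minimum in occluded libraries alone. The count of neutrophil genes is therefore not read against that share. S100a8 went from 0.359 to 3.17 CPM and S100a9 from 0.671 to 7.00 CPM, while Ngp and Csf3r were the 2 without such a p. Ly6g and Elane, also listed, were at 0 in sham and tMCAO, and Elane also with celastrol. Of the other listed genes too low for the filter, Mpo went from 0.159 ± 0.169 to 0.0943 ± 0.163 CPM after tMCAO (SD, n = 3 each). Camp went from 0.00932 CPM to 0, and Ltf, Cxcr2 and Stfa2l1 had higher means after tMCAO than in sham. Csf3r alone held 6.40 CPM of the sham mean of 8.18. For 11 monocyte genes it was 20.5 to 30.2, 36.9 to 50.2 and 32.6 to 42.7 CPM, with Plac8 and F10 at 0 in sham. Vcan alone held 21.7 CPM of the mean of 23.8 in sham, 30.3 of 41.3 after tMCAO and 29.0 of 37.9 with celastrol. For 9 border macrophage genes it was 26.6 to 28.6, 32.03 to 77.0 and 46.8 to 80.0 CPM, with none at 0. The sum of 10 dendritic cell genes was 202 to 259, 143 to 182 and 172 to 208 CPM, most of it Fscn1, and 8 lymphocyte genes stayed at or under 0.698 CPM. The part of these cells in the receptor values was not tested.

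Set against the summed pan-myeloid markers of its own library, Clec5a came to 0.512% to 0.662% in sham, 1.17% to 2.36% after tMCAO and 1.07% to 1.66% with celastrol. Clec7a came to 0.0602% to 0.0911%, 0.330% to 1.24% and 0.0991% to 0.305%. For both genes the occluded libraries were above sham on this scale too, and the celastrol range of Clec7a lay below the tMCAO range. That gap was narrow, with celastrol replicate 1 at 0.305% and tMCAO replicate 2 at 0.330%, and in CPM these groups overlapped. The share of all genes whose groups lie apart on this scale is not given, so no difference is read from it. The pan-myeloid sum was mostly Csf1r and Coro1a (89.6 and 57.7 CPM of the sham mean of 221), at 76.8 and 47.1 CPM after tMCAO. Of its 8 tested genes, 3 had an unadjusted edgeR p under 0.05 in the higher direction for tMCAO against sham, and 0 in the lower. In the fit without a filter 5.69% of all genes had such a p in the higher direction. The 3 genes were Cd68 (7.15 to 23.1 CPM), Cd53 (6.54 to 18.1 CPM) and Spi1 (3.23 to 6.85 CPM). The ratio thus depends on which markers are summed. Clec4a2 came to 0.280% to 0.309%, 0.177% to 0.357% and 0.158% to 0.337%, with groups that overlapped.

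**Figure D4:**
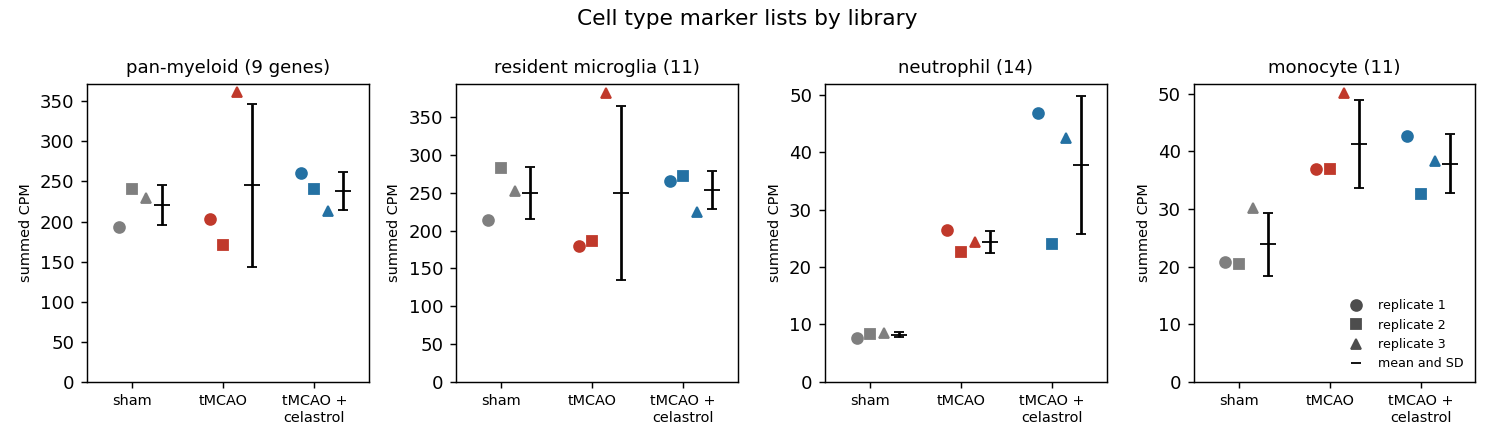
Summed CPM (y axis) of 4 marker lists in the 9 libraries, by group; symbols give the replicate number and black bars the mean and SD of 3 libraries. The pan-myeloid and microglia sums overlap between groups, and the neutrophil and monocyte sums lie above sham in every occluded library. Most of the monocyte sum is Vcan in each group, and most of the neutrophil sum in sham is Csf3r.

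Library totals ran from 60392960 to 75158625 estimated counts (median 68726348). Celastrol replicate 2 stood apart from the other occluded libraries, on the sham side of the first principal component (31.0% of the variance). It was the lowest celastrol library for Clec4d, Clec4e and Clec7a and the highest for Clec4n and Clec4a2. EdgeR called 91 genes for tMCAO against sham without it and 0 with it, with no member among the calls. Without it, the log2 fold change for celastrol against sham was 1.37 for Clec5a and 1.86 for Clec7a.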

How the data were processed

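Ribosomal RNA-depleted RNA of 9 libraries was analysed from 1 deposited table of estimated counts and FPKM values for each gene. The tools named per the submitters' processing notes are HISAT2 2.0.4, cutadapt 1.9 and StringTie 1.3.4d, beside DESeq2 and edgeR, with mm10; settings and use of strand are not stated there. The deposited estimated counts are whole numbers, and the deposited FPKM values carry a placeholder of 0.0001 where the count is 0. Estimated counts are not independent molecules, so floors of 3 counts cover counting error only.

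The main fit took the 16982 genes that reached an FPKM of 0.5 in 3 or more libraries, and a second fit took the 33952 genes with any count. The members that passed that filter did so by their occluded libraries alone. EdgeR 4.0.16 (glmQLFit and glmQLFTest, R 4.3.3) was fitted to all 9 libraries with 1 mean per group, TMM scaling and two-sided tests, with Benjamini-Hochberg adjustment over all genes of the fit and a threshold of 0.05. Standard errors come from the estimate and its F statistic, so intervals are approximate. The fit was tested on simulated data. Alternatives were DESeq2 1.42.0, limma 3.58.1 on log2(FPKM + 0.5, 0.1 or 1), other scalings, filters and forms of the fit, and leaving out each library. Lists of partner genes and markers were named by symbol, the row with the highest mean standing for a symbol. All members were described; of each list the 2 genes with the smallest p were named where none passed, and for each tested member the 3 genes with the highest Pearson r of log2 CPM (prior count 2). The members and lists were chosen with earlier results of these data known. Libraries of a group differed from each other by more than sampling noise (chi-square over its degrees of freedom from 69.0 upward). Of the genes that this rule names, 2 are not reported here.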

Additional observations from a re-analysis of the deposited data

How the results depend on the processing

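The count of 0 tested members called by edgeR held in each comparison under every alternative run except DESeq2, which called 2 for tMCAO against sham, 1 for celastrol against sham and 2 for all occluded against sham. With the replicate number as a block the count was 0 in each comparison, while calls over all genes went from 0 to 51 for tMCAO against sham. No label says that the numbers pair libraries, and deviations of same-numbered libraries correlated between −0.16 and 0.20. Leaving out each library gave 0 to 0 members in every comparison.

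Of 569 single-gene values over 22 alternatives, 538 kept direction and side of the threshold, 10 passed it, all by DESeq2, and 21 turned direction, none past the threshold; the cause was not tested. Clec4a2 turned to −0.031 for tMCAO against sham with upper quartile scaling and to −0.0014 with the replicate block, and for all occluded against sham to 0.046 with library totals and to 0.0042 and 0.0041 by limma (pseudocounts 0.5 and 1). Clec4d for celastrol against tMCAO turned to 0.021 with the replicate block. Leaving out each library gave Clec4a2 a range of −0.33 to 0.37 for tMCAO against sham, −0.46 to 0.24 for celastrol against tMCAO, −0.35 to 0.12 for celastrol against sham and −0.21 to 0.14 for all occluded against sham. Clec12a ranged from −2.05 to 0.19 for tMCAO against sham. For celastrol against tMCAO, Clec4d ranged from −1.37 to 0.82, Clec4e from −2.12 to 0.045 and Clec4n from −0.90 to 0.27. The FPKM-based changes are smaller by construction: Clec7a for tMCAO against sham was 0.61 with a pseudocount of 1 and 2.09 with 0.1. No fit of only the groups compared exists for the occluded comparison, which uses all groups, and the filter at an FPKM of 1 left only Clec5a.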

Other observations

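Among the products listed for these receptors and the monocyte markers, 3 genes too low for the filter were chosen after their values were seen and were not tested. Tnf had 0 to 4 counts in the sham libraries, 34 to 149 after tMCAO and 12 to 22 with celastrol, so no groups overlapped. Of genes with any count, 8.32% lay above sham in all 3 tMCAO libraries and 5.85% in all 3 celastrol libraries. Another 3.38% lay lower in all 3 celastrol libraries than after tMCAO. Il1b had 0 to 44, 44 to 335 and 27 to 46 counts, and Ccr2, a chemokine receptor from the monocyte list, 0 to 15, 55 to 339 and 15 to 59. Like Clec7a, these genes had lower means with celastrol than after tMCAO (Tnf 0.230 ± 0.062 against 1.02 ± 0.86 CPM, SD, n = 3 each). Other genes of the same lists had higher means with celastrol, such as Ptgs2 (71.9 ± 43.2 against 31.7 ± 12.6 CPM). Chil3 (3.93 ± 2.40 against 3.38 ± 2.03 CPM) and Plac8 (0.553 ± 0.197 against 0.481 ± 0.436 CPM) were further cases. The neutrophil sum had a mean of 24.4 ± 1.92 CPM after tMCAO and 37.7 ± 12.1 with celastrol, with ranges that overlapped. P2ry12, a receptor of resting microglia that passed the filter, was at 6.35 ± 0.59 and 6.86 ± 2.87 CPM in these groups and at 21.6 ± 3.08 in sham.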
